A study of Mus musculus with 4 samples.

Results

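The subcortical maternal complex is a protein assembly that the growing mouse oocyte stores beneath its surface and that the early embryo needs. Its messenger RNA was followed in germinal vesicle stage oocytes 24 h after γ-irradiation. The genes were taken as a list of 8 names, Nlrp5, Ooep, Tle6, Khdc3, Padi6, Nlrp2, Nlrp4f and Zbed3, and each was found by its NCBI gene ID, so that the 8 genes and their 21 listed RefSeq transcripts stood among 17374 genes and 45505 transcripts. RNA-seq was available for 4 libraries, 2 of control and 2 of irradiated oocytes, with 59 oocytes for each condition and 2 independent experiments per the study's methods. The oocytes were those of postnatal day 16 females of a C57/Bl6/DBA2J F1 hybrid background, freed of cumulus cells and of the zona pellucida, and described in the methods as transcriptionally active with a non-surrounded nucleolus (NSN). Both conditions shared culture in MEM with bovine serum albumin and milrinone, which holds the oocyte in meiotic arrest. The irradiated group received 5 Gy of γ-rays from a cesium source in vitro, after removal from the ovary, so that the response recorded is that of isolated oocytes without their follicle. The libraries are pools of oocytes and were made from RNA isolated with oligo(dT), so that a value describes polyadenylated RNA averaged over a pool.

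The complex is built around NLRP5 (also called MATER), OOEP (FLOPED), TLE6 and KHDC3 (FILIA), several of which depend on each other for stability. PADI6 is needed for the cytoplasmic lattices, fibrous structures in which oocytes store proteins for the embryo, and NLRP2, NLRP4F and ZBED3 are further proteins found with the complex. Embryos from females that lack Nlrp5, Ooep, Tle6 or Padi6 stop developing at early cleavage, which makes these maternal effect genes: the mother's genotype, not the embryo's own, decides the outcome. The messages are made during oocyte growth and the proteins persist after fertilization.

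The 8 genes lie at 8 separate places on 5 chromosomes, as annotated by RefSeq on GRCm38.p6. Nlrp5 (gene ID 23968) lies at chr7:23385889-23441923 and Nlrp2 (232827) at chr7:5298547-5351035. Khdc3 (66991) lies at chr9:73101381-73106631 and Ooep (67968) at chr9:78376903-78378588. Nlrp4f (97895) lies at chr13:65177111-65205716 and Zbed3 (72114) at chr13:95323605-95337842. Tle6 (114606) lies at chr10:81590904-81601185, and Padi6 (242726) at chr4:140727355-140742643.

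RefSeq promoter windows of 300 bases, which run from 250 bases before the annotated start to 50 bases after it, were found for 8 of the 8 genes. Where a gene had more than 1 window, the window nearest to the GENCODE start of its most abundant transcript was used. The E-box letters CANNTG, which many basic helix-loop-helix factors such as FIGLA recognise and which read the same on both strands, occurred in the windows of 7 of the 8 genes and in 72.3% of 32851 mouse windows. The letters TATAA, searched on the gene's strand in the 50 bases before the start, occurred for 1 of the 8 genes and in 4.925% of windows. The 100 bases before the start are printed for Padi6, which was low in irradiated library 2, and for Zbed3, which was close to the other libraries there. They are given 5′ to 3′ on the gene's strand, and capitals mark CANNTG and TATAA. The stretches lie at chr4:140742644-140742743 for Padi6 and chr13:95323505-95323604 for Zbed3, outside the span of each gene in RefSeq and outside any exon of GENCODE.
Padi6 (minus strand): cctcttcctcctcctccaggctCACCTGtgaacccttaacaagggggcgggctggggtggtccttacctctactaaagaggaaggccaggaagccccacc
Zbed3 (plus strand): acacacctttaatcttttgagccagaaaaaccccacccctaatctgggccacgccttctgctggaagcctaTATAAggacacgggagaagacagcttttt
The only TATAA among the 8 genes was that of Zbed3, whose first base lies 29 bases before the start. CANNTG occurred 1 time in the printed stretch of Padi6 and 0 times in that of Zbed3. Over the whole windows of 300 bases it occurred 2 times for Padi6 and 3 times for Zbed3. Whether these letters bear on the levels was not tested.

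The depth of the libraries was similar, with 33349466 to 37232818 estimated counts. The cell type was checked on marker genes. All 12 oocyte markers had over 1000 counts in every library. Of 14 granulosa and cumulus cell markers, 10 were listed in the table, 3 of those stayed at 3 counts or fewer in every library, and the list summed to 13.1 to 15.2 TPM, a level corrected for transcript length that has the same total in each library. The granulosa genes Amh, Foxl2 and Wt1 were not listed. Cyp19a1, the aromatase gene, was present at 528 to 543 counts and 8.79 to 10.2 TPM and made up most of the sum, and Kitl had 172 to 222 counts and Fshr 91 to 148. For stroma, theca and blood, 4 of 7 markers were listed and summed to 4.17 to 6.17 TPM. Irradiated library 2 stood apart from the other libraries. Its TMM factor, which scales a library to the bulk of its genes, was 1.19, while the other 3 lay between 0.923 and 0.975, and results below are given with and without it.

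The genes of the complex were among the most abundant messages of these oocytes. The 8 genes together held 1.51% and 1.60% of all TPM in the controls, 1.76% in irradiated library 1 and 1.37% in irradiated library 2. In each library 5 of the 8 ranked in the top 100 genes by TPM, and in 3 of the libraries 7 ranked in the top 250. Among control libraries the order by TPM was Ooep, Zbed3, Khdc3, Padi6, Nlrp5, Tle6, Nlrp4f and Nlrp2, and no neighbours in that order overlapped between the 2 control libraries. For 3 of these pairs the order turned in 1 irradiated library and was kept in the other. In irradiated library 2 Ooep was below Zbed3 (1595 against 3844 TPM) and Padi6 below Nlrp5 (1595 against 2050 TPM). In irradiated library 1 Khdc3 was below Padi6 (2823 against 2988 TPM).

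**Figure D1:**
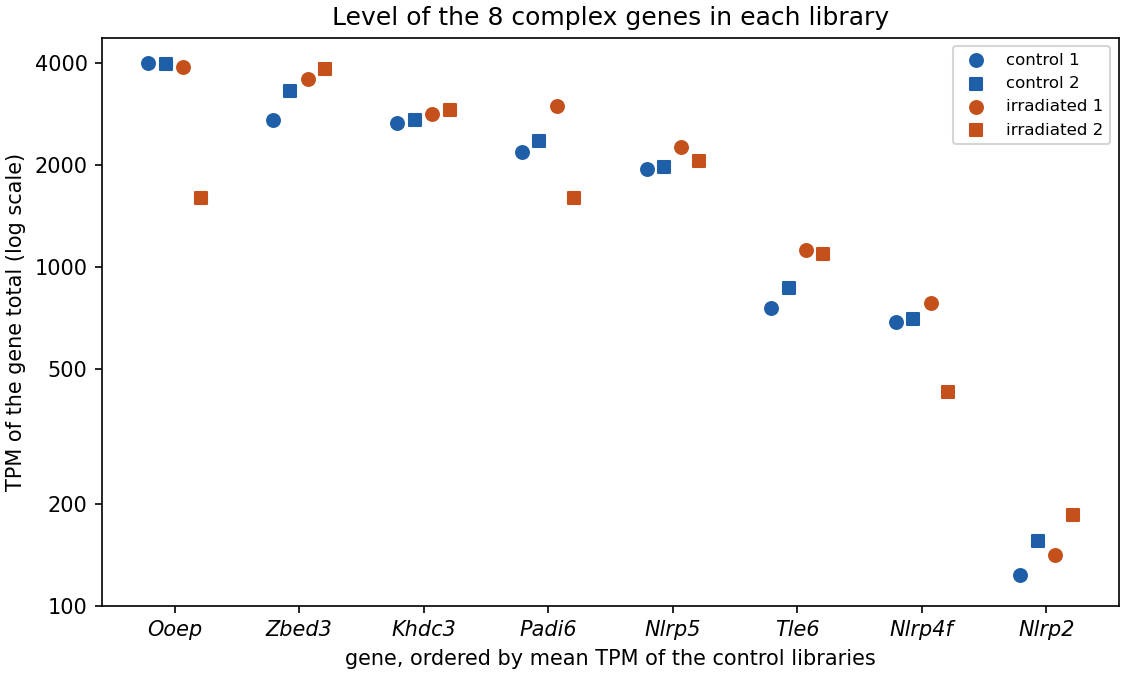
TPM of the gene total (log scale) for each of the 8 genes, with 1 point for each library, control in blue and irradiated in orange, library 1 as circles and library 2 as squares. Ooep, Padi6 and Nlrp4f have a low orange square, at 1595, 1595 and 427 TPM, below the other 3 points of the same gene.

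Among the core subunits, Ooep encodes the KH domain protein OOEP and had 3994 and 3978 TPM in the controls. It had 3889 TPM in irradiated library 1 and 1595 TPM in irradiated library 2. Irradiated library 1 was thus close to the controls, and irradiated library 2 was far below the other 3. On counts scaled by TMM, called normalised counts below, the values were 114171 and 107662 in controls and 106912 and 33197 in irradiated oocytes, so that both irradiated libraries lay below both controls. The log2 fold change was −0.66 ± 0.516 (SE, n = 2 libraries per condition), with a 95% interval from −1.89 to 0.56 and an adjusted p of 0.733 (edgeR, quasi-likelihood test). As the libraries are pools of cells, a lower share of oocytes that hold a message and less of it per oocyte cannot be told apart here.

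Nlrp5 encodes an NLR family protein and was among the earliest maternal effect genes described in mice. It had 1953 and 1974 TPM in controls and 2258 and 2050 TPM in irradiated oocytes. Its normalised counts of 182645 and 173450 in controls lay between those of the irradiated libraries, 201401 and 138300. On the log2 scale the difference was −0.07 ± 0.335 (SE), with a 95% interval from −0.86 to 0.73 and an adjusted p of 0.950 (edgeR).

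Tle6 encodes a transducin-like enhancer family protein and had the largest positive value among the 8 genes. Its level was 758 and 867 TPM in controls and 1125 and 1090 TPM in irradiated oocytes. Both irradiated libraries were thus above both controls in TPM, but not in normalised counts, which were 38718 and 41749 in controls and 55012 and 40320 in irradiated oocytes. The log2 fold change was 0.24 ± 0.257 (SE), with a 95% interval from −0.37 to 0.85 and an adjusted p of 0.773 (edgeR).

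Khdc3 encodes a KH domain protein that binds to the rest of the complex through NLRP5. It was the steadiest of the core genes in TPM, with 2661 and 2716 in controls and 2823 and 2907 in irradiated oocytes. Its normalised counts were 82273 and 79343 in controls and 83924 and 65489 in irradiated oocytes, and the groups overlapped. The log2 fold change was −0.11 ± 0.273 (SE) with an adjusted p of 0.892 (edgeR).

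Padi6 encodes a peptidylarginine deiminase family protein of the oocyte. It had 2183 and 2349 TPM in controls, 2988 TPM in irradiated library 1 and 1595 TPM in irradiated library 2. The irradiated libraries thus lay on either side of the controls, as they did in normalised counts, with 131521 and 133205 in controls and 172025 and 69466 in irradiated oocytes. This gave a log2 fold change of −0.13 ± 0.446 (SE), with a 95% interval from −1.19 to 0.92 and an adjusted p of 0.925 (edgeR).

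Nlrp4f, a rodent member of the NLRP family, had 691 and 700 TPM in controls and 784 and 427 TPM in irradiated oocytes. The pattern was that of Padi6, with irradiated library 1 the highest of the 4 libraries and irradiated library 2 the lowest. Its normalised counts were 64773 and 61720 in controls and 70189 and 28863 in irradiated oocytes, and the log2 fold change was −0.35 ± 0.415 (SE) with an adjusted p of 0.796 (edgeR).

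Nlrp2 was the least abundant of the genes, with 123 and 156 TPM in controls and 142 and 186 TPM in irradiated oocytes. Its normalised counts of 12209 and 12102 in the irradiated libraries lay between the 11149 and 13229 of the controls. This gave a log2 fold change of −0.004 ± 0.185 (SE), with a 95% interval from −0.44 to 0.43 and an adjusted p of 0.996 (edgeR), the narrowest interval among the 8 genes.

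Zbed3 encodes a zinc finger protein of the BED type. Its level was 2721 and 3300 TPM in controls and 3596 and 3844 TPM in irradiated oocytes. Its normalised counts overlapped, with 134976 and 154259 in controls and 170655 and 137959 in irradiated oocytes, and the log2 fold change was 0.09 ± 0.307 (SE) with an adjusted p of 0.922 (edgeR).

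The study's methods set 2 limits for a call, which were an adjusted p under 0.05 and a size above 2 on the log2 scale. By these limits 0 of the 8 genes were called, where 0.00796% of the 12569 genes tested were called (edgeR). All 8 genes passed the filter on low counts. At an unadjusted p under 0.05, 0 of the 8 genes were higher and 0 lower, where 4.63% of genes were higher and 1.29% lower. DESeq2 also called 0 of the 8. In normalised counts 0 of the 8 had both irradiated libraries above both controls, where 22.1% of genes did, and 1 had both below, where 19.8% did. In TPM, 4 of the 8 (Nlrp5, Tle6, Khdc3 and Zbed3) had both irradiated libraries above both controls and 1 (Ooep) below, where 32.8% and 5.88% of genes did. The median log2 fold change was −0.09 over the 8 genes and 0.01 over all genes tested. In this fit of gene totals the 95% intervals of the 8 genes ran from −1.89 at their lowest to 0.92 at their highest. A change past the fold limit in either direction lay outside them. For Ooep this depended on the fit, since in the fit of transcripts its only transcript had an interval from −2.42 to 1.11.

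The direction of several genes depended on scaling. When libraries were scaled by their totals alone, the median of all genes moved to 0.17, and Nlrp5, Khdc3 and Nlrp2 took positive values of 0.06, 0.03 and 0.15, each below that median. Tle6 was at 0.38, or above it, and Zbed3 at 0.23. Ooep, Nlrp4f and Padi6 stayed negative at −0.59, −0.26 and −0.05.

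The 2 irradiated libraries differed from each other more than the controls did. The absolute log2 difference between the control libraries had a median of 0.08 over the 8 genes and 0.13 over all genes. Between the irradiated libraries it was 0.50 over the 8 genes and 0.29 over all genes. In irradiated library 2 the normalised count of Ooep was 0.303 times the mean of the other 3 libraries, that of Nlrp4f 0.440 times and that of Padi6 0.477 times. These 3 of the 8 genes were at no more than 0.5 times that mean, where 1.41% of the 8721 genes with a mean count of at least 100 were. That share was larger among abundant genes. It was 22% in the top 100 by TPM, which held 5 of the 8 genes, and 14% in the next 150, which held 2. Nlrp5 was at 0.744, Khdc3 at 0.800, Tle6 at 0.893, Zbed3 at 0.900 and Nlrp2 at 0.992 times the mean. No gene of the complex was above that mean.

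**Figure D2:**
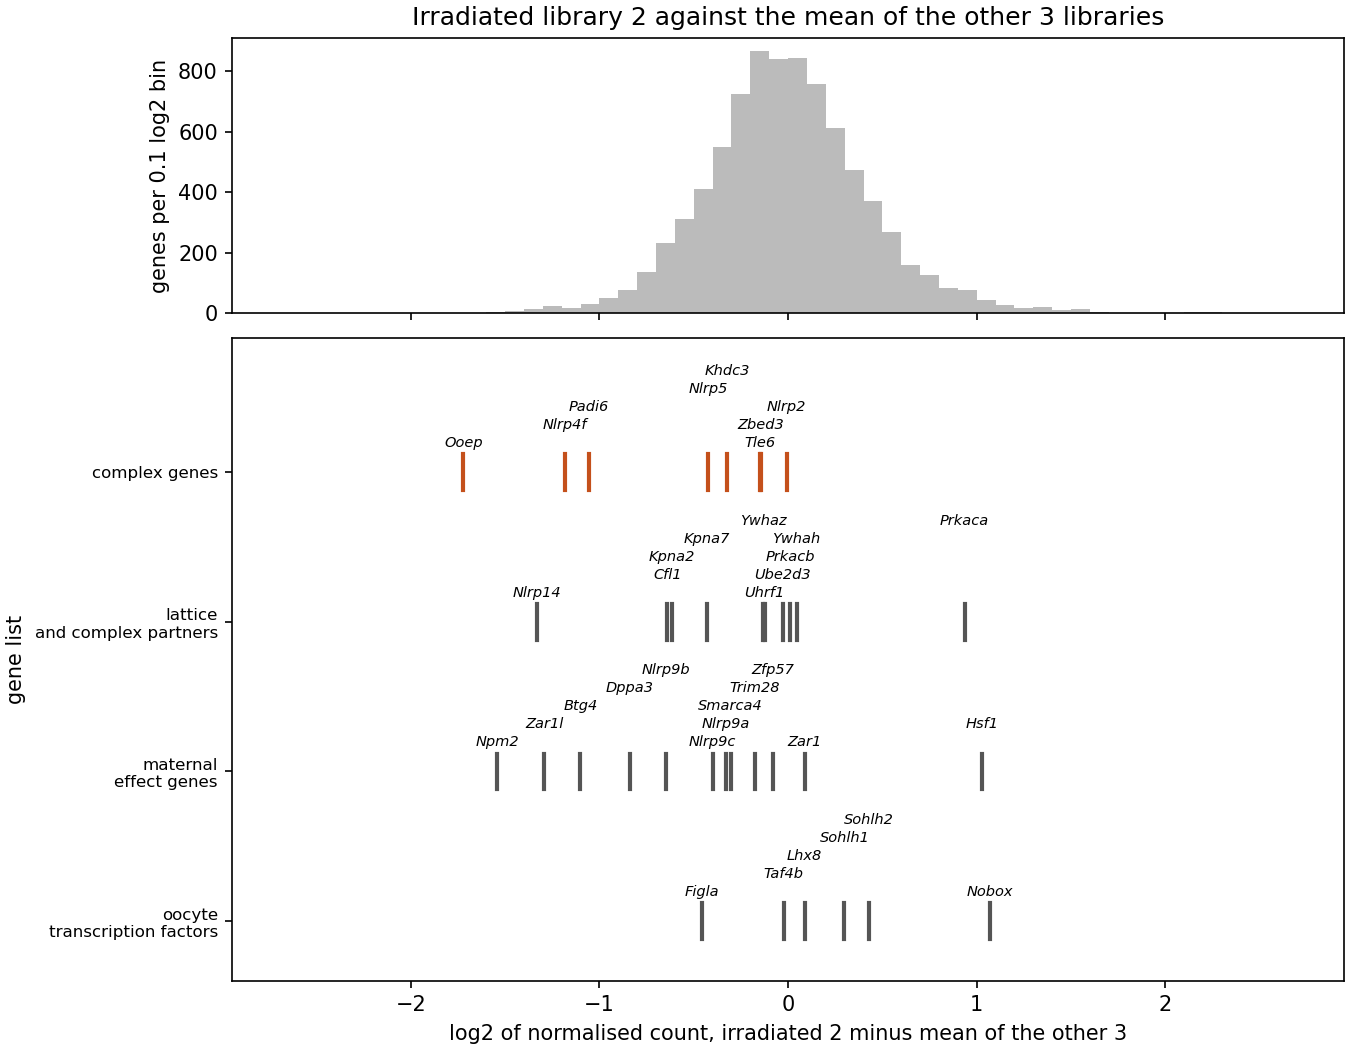
The upper panel gives the distribution over all genes with a mean count of at least 100 and a GC value of the log2 normalised count in irradiated library 2 minus the mean of the other 3 libraries, in bins of 0.1. The lower panel gives the same difference for each gene of the complex in orange and of 3 lists of related genes in grey, and Ooep, Nlrp4f and Padi6 lie at −1.72, −1.18 and −1.06.

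The balance among the genes changed in that library. These ratios are taken within a library and do not depend on its scaling. The TPM of Ooep was 1.50 and 1.46 times that of Khdc3 in controls and 1.38 times in irradiated library 1, but 0.549 times in irradiated library 2. Padi6 was at 0.821 and 0.865 times Khdc3 in controls, 1.06 times in irradiated library 1 and 0.549 times in irradiated library 2. Nlrp4f to Khdc3 was 0.260 and 0.258 in controls, 0.278 in irradiated library 1 and 0.147 in irradiated library 2. The ratio of Nlrp5 to Khdc3 stayed between 0.705 and 0.800 in all 4 libraries. Zbed3 to Khdc3 was 1.02 and 1.22 in controls and 1.27 and 1.32 in irradiated oocytes. Tle6 to Khdc3 was 0.285 and 0.319 in controls and 0.399 and 0.375 in irradiated oocytes, so that the irradiated libraries were above the controls in both ratios. Ooep made up 26.5% and 24.8% of the summed TPM of the 8 genes in controls, 22.1% in irradiated library 1 and 11.6% in irradiated library 2.

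Leaving out irradiated library 2 left 1 irradiated library, which the fit took to vary like the controls. The log2 fold change of Ooep then moved to −0.05, that of Nlrp4f to 0.15 and that of Padi6 to 0.38 (adjusted p = 0.131, edgeR). Tle6 had a log2 fold change of 0.45 with a 95% interval from 0.24 to 0.67 and an adjusted p of 0.00881 (edgeR), which is under the limit on size. It was the 1 gene of the 8 with an adjusted p under 0.05 and a higher value, where 0.573% of all genes had both. Leaving out irradiated library 1 instead gave −1.74 for Ooep (adjusted p = 1.82e-35, edgeR), with an interval from −2.01 to −1.48. Nlrp4f was at −1.13 and Padi6 at −0.93, and Nlrp5 and Khdc3 at −0.36 and −0.30. These 5 of the 8 genes had a lower value with an adjusted p under 0.05, where 18.1% of all genes did, and each was short of the limit on size. Such p-values describe 1 library against 2 controls, not the condition. With irradiated library 1 alone 7 of the 8 genes had a positive value, where 6345 of the 12569 genes tested did. With irradiated library 2 alone 7 of the 8 had a negative one, where 6100 of the 12569 did.

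**Figure D3:**
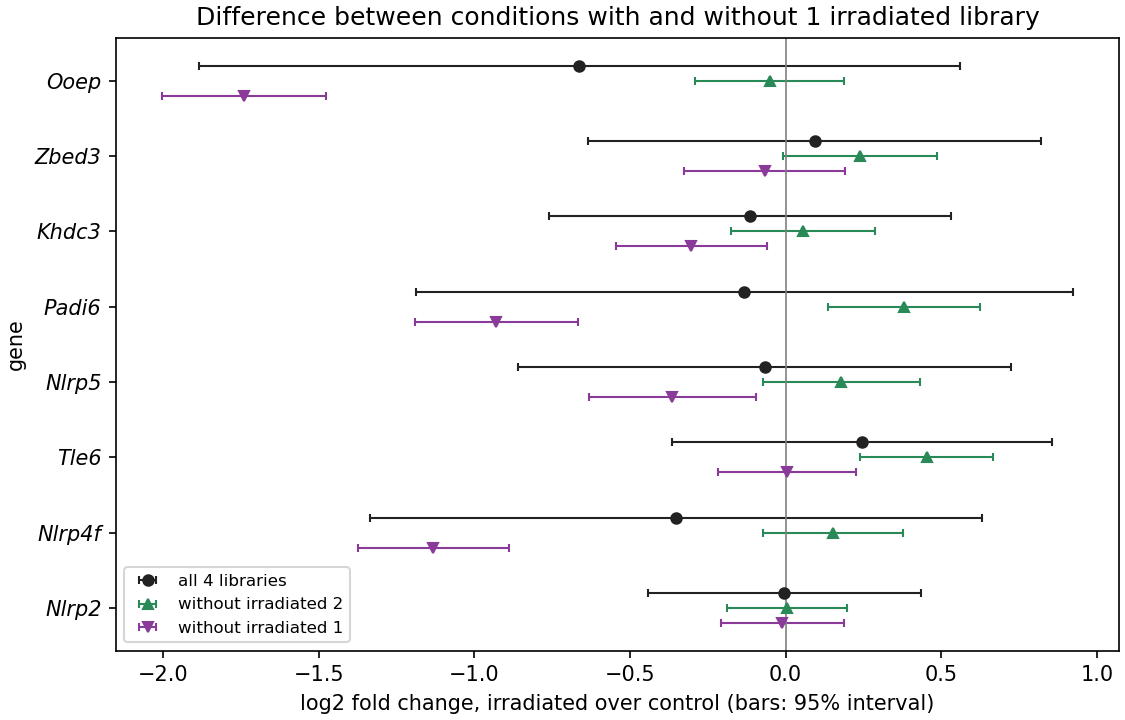
Log2 fold change of irradiated over control for each gene, with bars for the 95% interval, from all 4 libraries in black, without irradiated library 2 in green and without irradiated library 1 in purple. All black intervals cross 0, and the green and purple values of Ooep, Padi6 and Nlrp4f lie farthest apart.

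Irradiated library 2 also differed in how abundant messages stood against rare ones. Over the 100 most abundant genes by TPM, the log2 difference between irradiated library 2 and the other 3 libraries was −0.65 at the median, and its quartiles were −0.94 and −0.44. Down to rank 250 the median of the next 150 genes was −0.47, that of the next 750 was −0.30, and for genes below rank 1000 it was 0.01. Among the 5 genes of the complex in the top 100, Ooep (−1.72) and Padi6 (−1.06) lay below the lower quartile, and Nlrp5 (−0.42), Khdc3 (−0.32) and Zbed3 (−0.15) above the upper one. Nlrp4f (−1.18) lay below the lower quartile of its rank class, −0.76, while Tle6 (−0.15) lay above the upper one, −0.28. In the top 100, 22 genes were at no more than 0.5 times the mean of the other 3 libraries. The part of this shift in the values of the 8 genes was not tested.

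Composition of the transcripts moved with the irradiated libraries as well. GC content was available for 8234 of the 8721 genes with a mean count of at least 100. Across these genes, which share the same libraries and are not independent, Spearman's rho between GC content and the difference was 0.48 for irradiated library 1 against the controls and 0.31 for irradiated library 2 against the other 3. In the fifth of genes with the highest GC content, above 54.5%, the median differences were 0.13 and 0.23, and in the fifth with the lowest they were −0.09 and −0.14. Nlrp4f had the lowest GC content among the 8 genes (41.8%), and Khdc3 (60.2%) and Tle6 (56.0%) the highest. Padi6 (53.2%) and Zbed3 (53.9%), a pair picked with its values in view, lay close in GC content. Their values in irradiated library 2 were −1.06 and −0.15. The value for Ooep (46.3%) rests on a GENCODE model whose start differs from that of RefSeq. The part of GC content in these values was not tested.

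**Figure D4:**
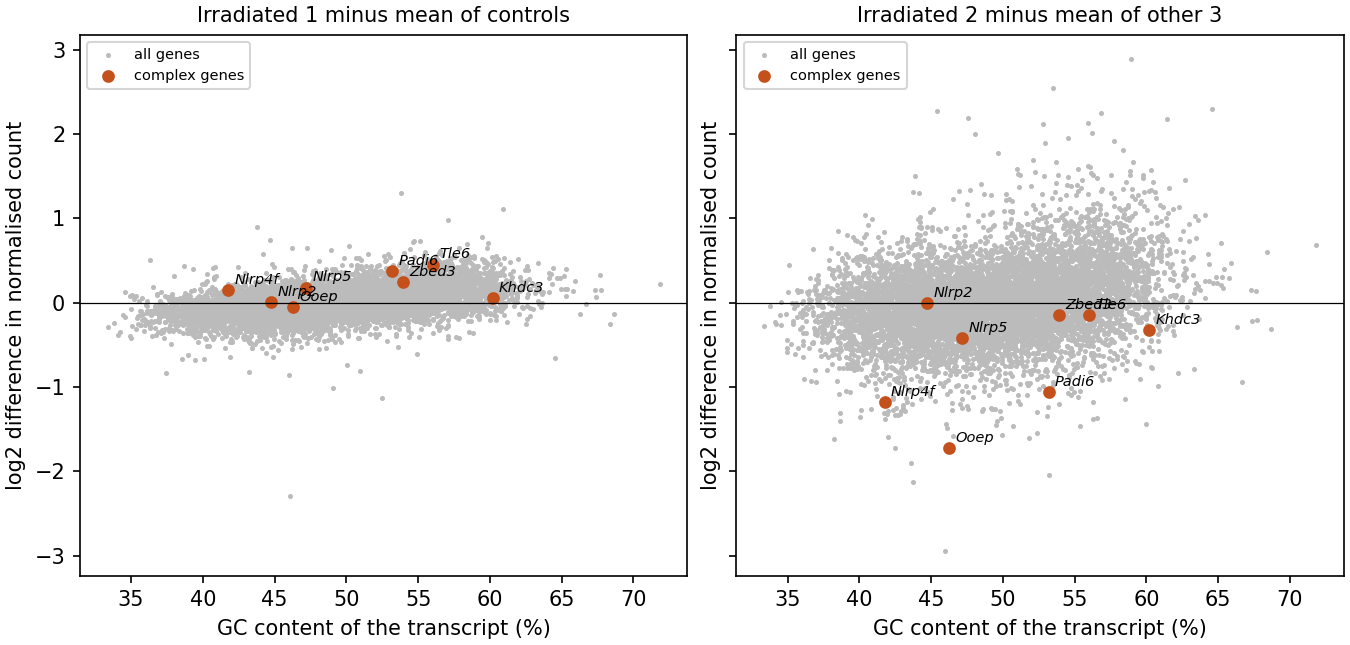
GC content of the transcript against the log2 difference in normalised count, for irradiated library 1 minus the mean of the controls (left) and irradiated library 2 minus the mean of the other 3 (right), with all genes in grey and the complex genes in orange. Grey points rise with GC content in both panels, and in the right panel Ooep, Nlrp4f and Padi6 lie in the lower part of the cloud.

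For the 4 genes with several listed transcripts, the main transcript held a similar share in every library. Ooep, Padi6, Nlrp2 and Nlrp4f are listed with 1 transcript each. The main transcript of Nlrp5, NM_011860.3, held 92.0%, 91.9%, 91.8% and 92.0% of the gene's counts in the controls and then the irradiated libraries. For Khdc3, NM_001311106.1 held 87.3% and 87.5% in controls and 86.9% and 86.6% in irradiated oocytes. Tle6 was the most divided, with NM_053254.2 at 74.0% and 72.7% in controls and 72.5% and 75.8% in irradiated oocytes, and NM_001346695.1 at 23.6%, 25.4%, 25.1% and 22.0% in the same order. Zbed3 came almost wholly from NM_001302538.1, with 99.8% or 99.9% in every library, the transcript that begins at the window with TATAA printed above. Of the 21 transcripts, 19 passed the filter, 0 were called and 0 had an unadjusted p under 0.05, where 0% and 4.9% of the 26645 transcripts tested did (edgeR), and DESeq2 also called 0 of them. A change in the use of transcripts was tested for the 4 genes with several transcripts, and 0 passed, where 0.253% of genes did. Reads shared among the transcripts of a gene were assigned by an estimate, which adds error to these shares that the spread between libraries need not show.

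Sequence relatives can share reads with some of the genes. A total that is not a whole number can arise when reads are divided between genes. A whole total does not show that no reads were divided. Within a tolerance of 0.05 counts, 6 of the 8 genes had whole totals in all 4 libraries, as 73.0% of the 8721 genes did. Nlrp4f had none, and Ooep had whole totals in 3 libraries and 100532.07 counts in the other. The value of Nlrp4f is therefore uncertain to the extent that reads were divided with its neighbours in the Nlrp4 family. Nlrp4b, with 25647 and 21994 counts in controls and 22334 and 11202 in irradiated oocytes, and Nlrp4a, with 18256, 16773, 16907 and 13628, were the most abundant of these and lower than Nlrp4f in every library. In irradiated library 2 Nlrp4b was at 0.392 times the mean of the other 3 libraries, next to 0.440 for Nlrp4f. For Padi6, the paralogs Padi1, Padi2, Padi3 and Padi4 had at most 85.3 counts, against at least 80671 for Padi6.

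Genes that work with the complex or share its role were taken as 3 lists written from general knowledge, of which all 28 genes passed the filter. Of these 28, 0 were called, 1 was higher and 0 were lower at an unadjusted p under 0.05, where 0.00796%, 4.63% and 1.29% of all genes were (edgeR). Among the 28, 11 had positive and 17 negative values, with a median log2 fold change of −0.10. Over the 12569 genes tested, 6459 had positive and 6110 negative values, with a median of 0.01. DESeq2 called 0 of the 28 as well. Without irradiated library 2 the count of positive values among the 28 was 16 and the median 0.04, where 6345 of the 12569 genes had positive values.

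Among the 10 lattice and complex partners, 3 had positive values. Prkaca, a catalytic subunit of protein kinase A, had the smallest p, with normalised counts of 123 and 134 in controls and 156 and 263 in irradiated oocytes and a log2 fold change of 0.71 ± 0.270 (SE, adjusted p = 0.708, edgeR). Without irradiated library 2 that value was 0.28. Prkaca is, with Prkacb, among the rarest messages of the list. Uhrf1, which is needed to maintain DNA methylation, had a log2 fold change of 0.16, and Ube2d3, a ubiquitin-conjugating enzyme, −0.11. Both, like Nlrp14, were picked with their values in view. Nlrp14, a partner of UHRF1, had 5714 and 5650 TPM in controls, 6230 TPM in irradiated library 1 and 3108 TPM in irradiated library 2. It was thus lowest in the same library as Padi6 and Nlrp4f, at 0.397 times the mean of the other 3.

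Among the 12 maternal effect genes, 4 had positive values. Hsf1, the heat shock transcription factor, had normalised counts of 296 and 321 in controls and 338 and 648 in irradiated oocytes, with a log2 fold change of 0.68 ± 0.290 (SE, adjusted p = 0.708, edgeR). Without irradiated library 2 that value was 0.13. Npm2, a histone chaperone needed for chromatin of the zygote, had 4004 and 3730 TPM in controls and 3889 and 1765 TPM in irradiated oocytes. Btg4, an adaptor for the removal of maternal messages, and Zar1l were at 0.465 and 0.408 times the mean of the other libraries in irradiated library 2. Npm2, Btg4 and Zar1l were also picked with their values in view. Without irradiated library 2 the log2 fold changes of Npm2, Btg4 and Zar1l were −0.007, 0.06 and −0.002.

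Among the 6 oocyte transcription factors, 4 had positive values. In normalised counts 3 of the 6 had both irradiated libraries above both controls and 2 had both below, where 22.1% and 19.8% of all genes did. The same counts were 2 and 1 for the 10 lattice and complex partners and 2 and 4 for the 12 maternal effect genes. Over all 28 related genes they were 7 and 7. Nobox, a homeobox factor of oocyte growth picked with its values in view, had normalised counts of 19123 and 19930 in controls and 21540 and 42315 in irradiated oocytes. Its log2 fold change was 0.71 ± 0.330 (SE, adjusted p = 0.708, edgeR), and 0.14 without irradiated library 2. Figla, which turns on oocyte genes through E-boxes, had normalised counts of 2852 and 2754 in controls and 2473 and 1956 in irradiated oocytes. Its log2 fold change was −0.34 ± 0.159 (SE, adjusted p = 0.708, edgeR), and −0.18 without irradiated library 2. Taf4b, a subunit of the general transcription factor TFIID, had normalised counts of 397 and 425 in controls and 320 and 372 in irradiated oocytes, and a log2 fold change of −0.25 ± 0.152 (SE, adjusted p = 0.709, edgeR). Without irradiated library 2 that value was −0.36. Figla and Taf4b were the 2 with both irradiated libraries below both controls, and none of the 6 passed the test.

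The genes whose pattern over the 4 libraries was nearest to the mean pattern of the 8 were found by Euclidean distance between centred log2 normalised counts. Of 8713 genes compared, 46 lay within a distance of 0.1. The 3 nearest were Txnip at 0.025, Cdkl1 at 0.028 and Ppm1k at 0.036. Txnip, which encodes the thioredoxin-interacting protein, had 101 and 111 TPM in controls and 123 and 97.8 TPM in irradiated oocytes. Cdkl1 and Ppm1k were rare messages with 1.55 to 2.20 TPM. The mean pattern, and with it the 3 nearest genes, was highest in irradiated library 1 (0.27 above the mean of the 4 libraries on the log2 scale) and lowest in irradiated library 2 (−0.47). It was not the pattern of each gene of the complex, since Nlrp2 was lowest and highest in the control libraries, Tle6 and Zbed3 were lowest in control library 1, and Ooep was highest in control library 1.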

How the data were processed

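RNA-seq of 2 control and 2 irradiated libraries was grouped by the condition and number in the sample titles. The authors deposited an estimated count (expected count) for each RefSeq transcript and library, not scaled for depth, and TPM values, which correct for transcript length and sum to the same total. The paper names Bowtie2 and GRCm38, and the submitters' processing notes name HISAT2, Bowtie2, RSEM and mm10. The role and version of each tool are not given in the sources used here. The authors also deposited FPKM values, scaled for transcript length and depth (4 columns), and 6 columns of averages, which were not used.

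Counts and TPM were summed by gene ID. Of 17374 IDs, 17323 had a RefSeq symbol. Counts were rounded and tested in edgeR 4.0.16 (R 4.3.3) after TMM scaling, with glmQLFit and glmQLFTest and no block. Features were kept by filterByExpr at a minimum count of 10, p-values were adjusted by Benjamini and Hochberg over the whole table, and transcript usage was tested by diffSpliceDGE with Simes' method. Since the 2 experiments are the replicates and nothing says which animals each pool came from, p-values measure the spread between these libraries. Normalised counts are counts divided by the TMM-scaled library size and multiplied by the mean library size. With 2 libraries per condition an exact permutation test of a single value cannot reach p = 0.05, so none was used. DESeq2 1.42.0, limma-voom and TPM fits (limma 3.58.1, pseudocount 1 or 0.1, minimum mean TPM of 1) were alternatives.

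The members and gene lists were chosen with earlier results of these data known. Named were the 8 genes, the related genes with the smallest p in each direction (up to 2 each), the 3 genes nearest in pattern, and paralogs that could share reads. Others are marked as picked with their values in view. Transcript GC content and starts come from GENCODE vM21 (GRCm38), promoter sequences from RefSeq (GRCm38.p6). Figures were drawn with matplotlib 3.10.9.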

Additional observations from a re-analysis of the deposited data

How the results depend on the processing

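No setting called a gene of the complex, a transcript of the complex or a related gene past both limits. Counts over all genes moved more. Against 1 gene called in the main test, scaling by library size alone, limma-voom and the 3 TPM fits called 0, the fit without a filter 3 and DESeq2 5, and leaving out 1 library gave 16 to 51, highest without irradiated library 1. Without that library 51 genes were called, without irradiated library 2 16, without control library 1 19 and without control library 2 22. DESeq2 called 233 transcripts where edgeR called 0 (1306 at an unadjusted p under 0.05). For transcript usage, the F test called 58 genes in place of 16. With the replicate number as a block, 7 genes were called and 3 genes changed in transcript usage. The numbers are not shown to pair the libraries, since deviations of same-numbered libraries correlated at 0.0975 over 12569 genes with only 2 pairs. The block changed no other call and left the log2 fold change of Ooep at −0.90 and of Nlrp2 at 0.0012, which is positive. The cause of these moves was not tested. The fits that left out 1 library also had fewer libraries, and the part of that was not tested either.

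With all 4 libraries, signs turned for Nlrp5, Khdc3 and Nlrp2, and with 1 library left out also for Padi6, Nlrp4f and Zbed3. Nlrp5 was at 0.062 with library size alone and 0.13 in the 3 TPM fits, Khdc3 at 0.028 and 0.092, and Nlrp2 at 0.15 and 0.22 to 0.23, while limma-voom gave Nlrp2 0.00015. TPM fits with a filter moved the median of all genes to 0.18 with a pseudocount of 1 and 0.21 with 0.1. Without 1 library in turn, the ranges were −0.36 to 0.18 for Nlrp5, −0.30 to 0.056 for Khdc3, −0.93 to 0.38 for Padi6, −0.12 to 0.12 for Nlrp2, −1.13 to 0.15 for Nlrp4f and −0.068 to 0.24 for Zbed3. Ooep stayed negative (−1.74 to −0.05) and Tle6 positive (0.003 to 0.45). With 2 libraries per condition, even the narrowest interval among the 8 genes, that of Nlrp2, ran from −0.44 to 0.43. Such an interval is not a limit of detection, since Ooep at −0.66 had an adjusted p of 0.733 (edgeR).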
